A study of Oryzias latipes with 18 samples.

Results

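THAP genes encode proteins with a THAP domain, and 40 of the 1646 transcription factor (TF) genes in the study's list of medaka TF genes carried this family label. All 40 lay on the 24 chromosomes and none on unplaced scaffolds, so they were set beside the 1492 other TF genes on chromosomes (1532 TF genes in all). The family label came from the study's list of TF genes and used no accessibility value. Open chromatin was mapped by ATAC-seq, in which a transposase cuts accessible DNA, in whole medaka embryos without chorion and yolk, so that all cell types were mixed. All embryos were offspring of the strains d-rR-Tg(olvas-GFP), which carries a transgene that marks germ cells, and Qurt, and no treatment or mutation was compared. There were 9 stages (11, 15, 19, 25, 29, 32, 36, 38 and 40) with 2 replicates each, 18 libraries in all. These were pooled in 1 list of 149539 accessible elements, so that no value per stage or per replicate was used here, and no difference was tested.

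The THAP domain is a zinc-coordinating DNA-binding domain related to the DNA-binding domain of the P element transposase of Drosophila, and it usually lies at the N terminus of the protein. In human, THAP1 is mutated in an inherited form of dystonia. In mouse, THAP11 (also called Ronin) is needed in early embryos and embryonic stem cells and acts with the transcriptional co-regulator HCFC1 at promoters. Others, such as THAP9 of human, are related to transposases over much of their length. Accessible elements at a transcription start site (TSS) often mark promoters, and those farther away can mark enhancers.

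THAP genes had few accessible elements around them. The number of elements with their midpoint within 50 kb of the TSS had a median of 14 over the 40 THAP genes (quartiles 9.75 and 21.25, range 0 to 42), against 26 over the 1492 other TF genes (quartiles 19 and 33, range 0 to 64). The mean was 15.4 ± 9.52 for THAP genes (SD, n = 40) and 26.0 ± 11.0 for other TF genes (SD, n = 1492), so the genes of both groups overlapped widely. An element within 1 kb of the TSS, called a promoter element here, was present at 21 of 40 THAP genes (52.5%, 95% Wilson interval 37.5 to 67.1%), against 1306 of 1492 other TF genes (87.5%). For zf-C2H2 genes, the largest TF family and also zinc-coordinating, the share was 80.8% and the median number of elements was 22. For Homeobox genes the share was 93.4% and the median was 29. Over 22058 protein-coding RefSeq genes, counted as the mean of the windows around both gene ends, the median was 22.5.

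Among the 22 TF families with at least 10 genes on chromosomes, the THAP family had both the lowest median number of elements and the lowest share of genes with a promoter element. The next lowest medians were 22 for zf-C2H2 genes, 22.5 for E2F genes and 23.5 for IRF genes. The next lowest promoter shares were 60.0% for the 10 CUT genes and 75% for the 12 IRF genes. Elements are counted per gene, and neighbouring genes can count the same element.

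**Figure D1:**
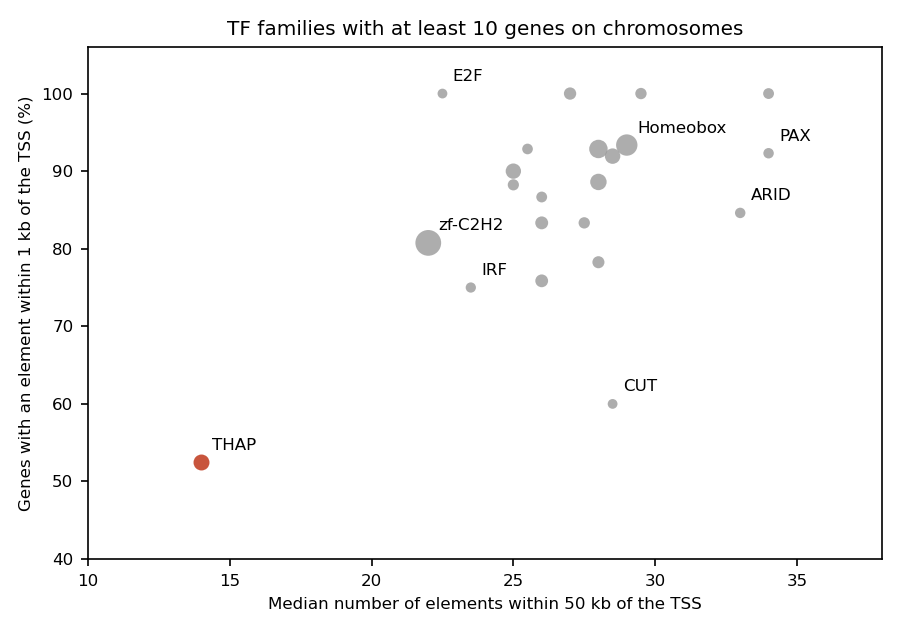
The 22 TF families with at least 10 genes on chromosomes are placed by the median number of elements within 50 kb of the TSS (horizontal axis) and by the percentage of genes with an element within 1 kb of the TSS (vertical axis), with larger points for families with more genes. The THAP family (coloured) sits at 14 elements and 52.5%, below and to the left of the other families.

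The 40 THAP genes were of 2 kinds by their identifiers. Among the 1646 TF genes, identifiers of the IGDB gene models ran once over the chromosomes and scaffolds, and then a second time over the chromosomes. The second series was taken to start after the last identifier of a TF gene on a scaffold, also for lncRNA genes. The paper built its gene set mainly from long-read models, with Ensembl models added. What the series stand for, and which series holds which models, is not given in the sources used here. Of the 1135 lncRNA genes, which the study took from long reads, 79 were in the first series and 1056 in the second. Of the THAP genes, 24 were in the first series and 16 in the second, whereas 520 of all 1532 TF genes on chromosomes were in the first. The first series made up 60% of THAP genes and 70% of CUT genes, the 2 families with the lowest promoter shares. In the other families with at least 10 genes it made up between 0% (MH1) and 50% (Homeobox). The split by series was chosen after the values had been seen. First-series THAP models also shared less of their span with a RefSeq gene, at a median of 36.2%, against 92.8% in the second series. The shared span of other TF genes in each series is not given here. Where at least 50% was shared, at 7 first-series and 13 second-series THAP genes, the TSS could be moved to the end of the RefSeq gene. The number of THAP genes with a promoter element was again 21. Of the genes without a promoter element, only IGDB00436, IGDB01929, IGDB01974 and IGDB09200 shared that much. The others kept their TSS, so the unchanged number cannot show whether their TSSs were misplaced. The part of these differences between gene models in the results by series was otherwise not tested.

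All 19 THAP genes that lacked a promoter element were in the first series. In the second series, 16 of 16 THAP genes had a promoter element (100%, Wilson interval 80.6 to 100%), against 945 of 996 other TF genes (94.9%). In the first series, 5 of 24 THAP genes had one (20.8%, Wilson interval 9.24 to 40.5%), against 361 of 496 other TF genes (72.8%). The share among first-series zf-C2H2 genes was 53.3% and among first-series Homeobox genes 89.4%. The lower share was thus seen in the first series and not in the second.

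The number of elements within 50 kb was divided in the same way. It had a median of 11 in first-series THAP genes (range 0 to 42), against 25 in first-series other TF genes. In the second series the median was 21.5 for THAP genes (range 12 to 34), against 26 for other TF genes. Second-series zf-C2H2 genes had a median of 23, close to that of the second-series THAP genes. 5 or fewer elements were found at 7 of 40 THAP genes (17.5%), all in the first series, against 66 other TF genes (4.42%). Within the first series this was 29.2% of THAP genes, against 7.06% of other TF genes, among them 21.5% of zf-C2H2 genes.

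**Figure D2:**
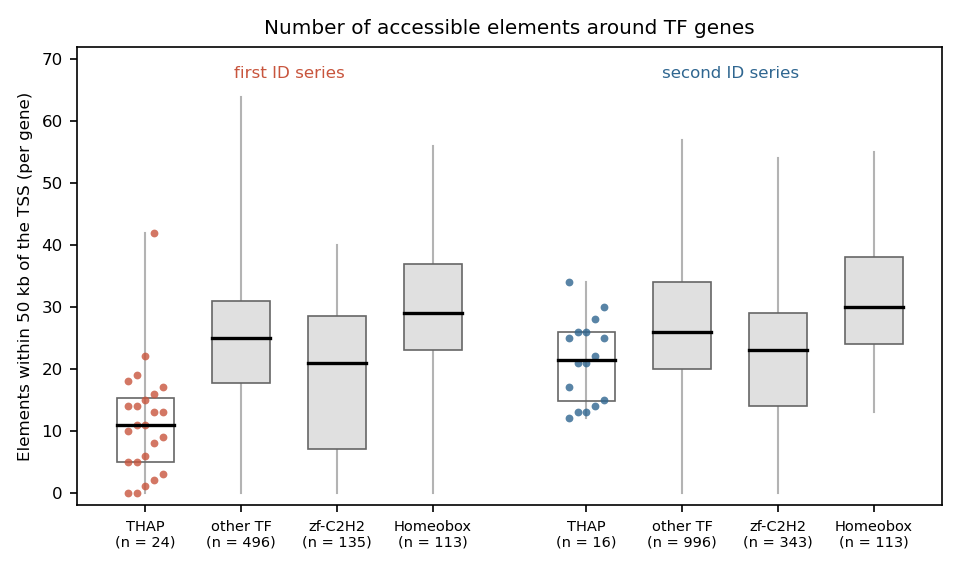
The number of elements within 50 kb of the TSS (vertical axis, per gene) is shown for THAP genes, other TF genes, zf-C2H2 genes and Homeobox genes of each ID series. Boxes give quartiles, thick lines medians and thin lines the range, and points are single THAP genes. THAP genes of the first series have a median of 11 and those of the second 21.5.

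The THAP genes with names known from other vertebrates were all in the second series, and each had a promoter element. The first is thap1, a DNA-binding regulator linked in human with cell proliferation and with dystonia. In the assembly ASM223467v1, whose coordinates are used throughout, thap1 is IGDB13492 on chromosome 12 (29951782 to 29955830, forward strand). The TSS was covered by an element of 446 bp between 29951605 and 29952050. The peak score of this element, taken to be −log10 q from the peak caller, was 498, and 9 peaks had been merged in it. It was the strongest of the 15 elements within 50 kb of the thap1 TSS, with a score above 99.4% of all elements of the list.

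Another is thap11, whose mouse counterpart is Ronin. This gene, IGDB21531 on chromosome 3 (21745447 to 21747732, forward strand), had 17 elements within 50 kb. The element over the TSS (21745348 to 21745515) was merged from 9 peaks and scored 108. A second element (21745572 to 21746709), which scored 75.5, was 1138 bp long and covered a large stretch of this short gene. Of the 17 elements, 10 were merged from at least 9 peaks, and the median score of the window was 93.1, the highest of all THAP genes. The strongest element, with a score of 437, lay 35.0 kb upstream at an end of tradd, which encodes an adaptor of the TNF receptor. The region of thap11 was dense in genes, with 11 protein-coding RefSeq genes within 50 kb of the TSS, thap11 included.

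For thap12, known in human as an interactor of the inhibitor of the kinase PKR, the strongest element within 1 kb of the TSS was longer than at any other THAP gene. The gene is IGDB14676 on chromosome 14 (22996727 to 23019698, reverse strand). This element (23019118 to 23019792) was 675 bp long, scored 133 and was merged from 15 peaks. Of the 21 elements in the window, the strongest was 37.0 kb upstream at an end of pwwp2a, which encodes a chromatin protein. It had a score of 751 and 18 merged peaks, and it was the strongest element in any THAP window.

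A second thap12 gene, to which the study's supplement gives the symbol thap12a, lies on the same chromosome. This is IGDB14146 (38655 to 64351, reverse strand), with 13 elements within 50 kb. The element over its TSS (64089 to 64416) was weak and scored 21.6, with 3 peaks merged. A stronger element (63248 to 63644), which scored 251 with 9 peaks merged, lay 0.905 kb downstream within the gene. Upstream by 24.4 kb lay the strongest element of the window, scoring 717, at an end of stt3a, a subunit of the oligosaccharyltransferase that glycosylates proteins. The paralogues thus differed in where the stronger accessible element lay relative to the TSS.

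In RefSeq, 2 further members had a reciprocal overlap above 50% with genes whose names are not those of THAP genes. That of IGDB23938, which lies wholly within commd9, was 49.6%. IGDB17550 (chromosome 19, 2046404 to 2055694, forward strand) matched l3mbtl2, which encodes a Polycomb group protein. Its promoter element (2046200 to 2046539) scored 649, the highest of the 21 THAP promoter elements and above 99.8% of all elements of the list. IGDB21254 (chromosome 3, 9875276 to 9880210, forward strand) matched arl14ep, named in human as an effector of the small GTPase ARL14. Its promoter element (9875131 to 9875335) scored 252, and a stronger element with a score of 404 lay 1.37 kb upstream at an end of nr1h3, a nuclear receptor of oxysterols. Without these 2 genes 19 of 38 THAP genes had a promoter element, and without IGDB23938 as well 18 of 37 did, with a median of 14 elements in both cases. These alternatives were chosen after the values had been seen.

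The remaining strong promoters belonged to THAP genes without a family symbol. IGDB13744 on chromosome 13 (12337773 to 12341635, forward strand) had a promoter element of 238 bp with a score of 423. IGDB13565 on the same chromosome (3351214 to 3354412, forward strand) had one of 409 bp with a score of 287. Both were merged from 9 peaks, and both were the strongest elements of their windows, which held 22 and 26 elements. A promoter element was the strongest in the window at 5 of 40 THAP genes (12.5%), against 283 other TF genes (19.0%). These 5 were IGDB07542, thap1, l3mbtl2, IGDB13744 and IGDB13565. By series, the share was 4.17% against 7.06% in the first and 25% against 24.9% in the second.

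Where a promoter element was present, it was about as strong at THAP genes as at other TF genes. The strongest element within 1 kb of the TSS had a median score of 133 over the 21 THAP genes that had one (quartiles 77.4 and 251, range 8.05 to 649), against 121 over the 1306 other TF genes that had one (quartiles 53.6 and 249). The median number of merged peaks was 9 in both groups, and at least 9 peaks had been merged at 14 of 21 THAP genes (66.7%), against 739 of 1306 other TF genes (56.6%). In 14 of 21 THAP genes this element covered the TSS, and its width ranged between 96 and 675 bp. A total of 7 THAP genes had 2 elements within 1 kb of the TSS, and IGDB16662 had 3. Coverage of the TSS, width range and these counts are not given here for other TF genes, so none is read as particular to THAP genes.

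**Figure D3:**
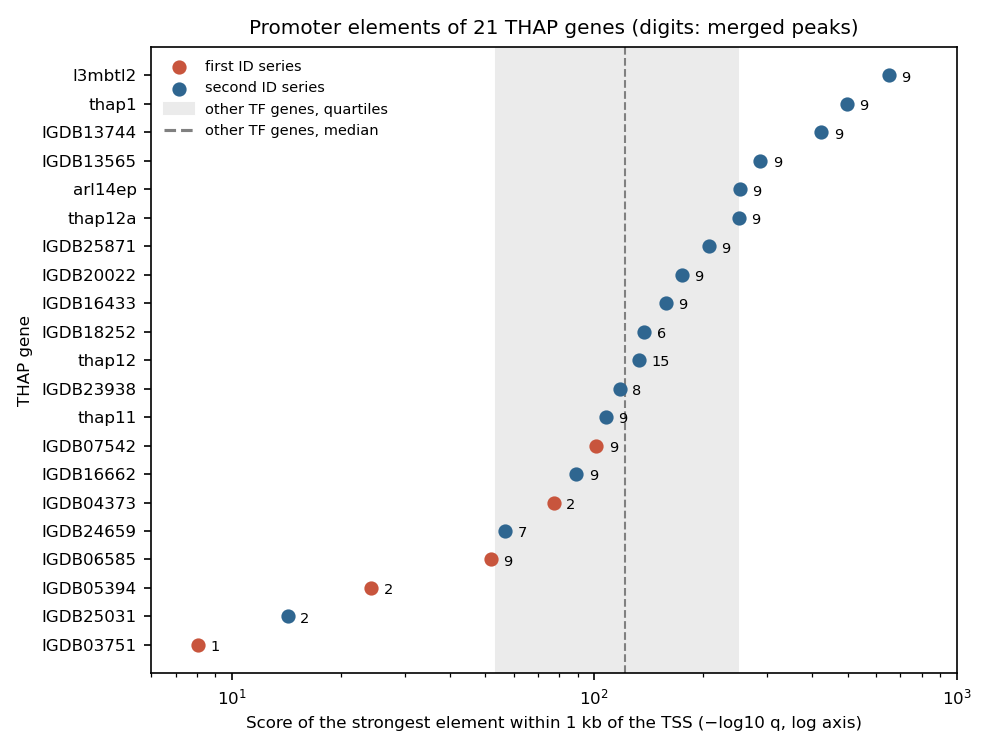
The score of the strongest element within 1 kb of the TSS (horizontal log axis, −log10 q) is shown for the 21 THAP genes that have one, with digits for the number of merged peaks. The grey band and dashed line give the quartiles and the median of other TF genes. Scores range between 8.05 for IGDB03751 and 649 for l3mbtl2.

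The promoter elements of the 5 first-series genes were weaker than most of those in the second series. Their median score was 51.9, against 64.6 for first-series other TF genes, and that of the 16 second-series genes was 166, against 151 for second-series other TF genes. IGDB07542 (chromosome 3, 37161835 to 37167608, reverse strand) had a score of 101 and 9 merged peaks. IGDB04373 (chromosome 18, 18294822 to 18296796, reverse strand) had a score of 77.4 with 2 merged peaks at 0.95 kb upstream, just inside the 1 kb limit. The other scores were 51.9 with 9 peaks at IGDB06585, 24.2 with 2 peaks at IGDB05394 and 8.05 with 1 peak at IGDB03751. Just outside the limit, the nearest element of IGDB06059 lay 1.59 kb upstream with a score of 55.9. In the second series the weakest was IGDB25031 on chromosome 8, with a score of 14.3 and 2 merged peaks, although an element with a score of 663 lay 21.8 kb upstream of it.

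The 19 THAP genes without a promoter element were not all in regions without elements. Their nearest element lay at a median of 4.27 kb from the TSS (range 1.59 to 83.7 kb), and at 12 of the 19 it lay within 5 kb. They had a median of 11 elements within 50 kb (range 0 to 42), against 21 (range 5 to 34) for the 21 THAP genes with a promoter element. All 19 were in the first series, whereas 16 of the 21 were in the second. The 5 first-series genes with a promoter element had 5, 9, 13, 16 and 22 elements. The nearest element lay under 3 kb away at IGDB06059, IGDB09531, IGDB00374, IGDB07283, IGDB02250 and IGDB05415, and between 3 and 5 kb away at IGDB09200, IGDB04747, IGDB05620, IGDB06772, IGDB01655 and IGDB01929. It lay between 5 and 10 kb away at IGDB01745, IGDB03748, IGDB04459 and IGDB01974. The median score of these nearest elements was 23.4, but at IGDB01929 the score was 228 and at IGDB06772 it was 320 in an element merged from 22 peaks. The element of IGDB06772 lay 4.27 kb upstream at an end of ing3, a reader of histone methylation. Distances and scores of nearest elements are not given here for other TF genes without a promoter element. None is thus read as particular to THAP genes.

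Of the 5 THAP genes with the fewest elements, 3 had their nearest element more than 10 kb away. No element lay within 50 kb of IGDB05135 (chromosome 2, 6522722 to 6527165, reverse strand), whose nearest element was 83.7 kb upstream. None lay within 50 kb of IGDB04500 (chromosome 18, 24297593 to 24297995, reverse strand) either, a model of only 403 bp with its nearest element 76.5 kb upstream. IGDB00436 on chromosome 1 had 1 element, 44.6 kb upstream, IGDB03748 on chromosome 17 had 2, the nearer 6.44 kb upstream, and IGDB09200 on chromosome 7 had 3, the nearest 3.73 kb downstream within the gene. Protein-coding RefSeq genes, any overlapped by the member itself included, were found in these windows all the same, between 2 at IGDB09200 and 7 at IGDB04500.

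The THAP gene with the most elements was also of the first series and had no promoter element. IGDB01655 on chromosome 12 (12223911 to 12225538, forward strand) had 42 elements within 50 kb, 24 upstream and 18 downstream, and overlapped no RefSeq gene. Its nearest element lay 4.53 kb upstream with a score of 23.4, and its strongest, with a score of 342, lay at an end of surf4, which encodes a cargo receptor of the endoplasmic reticulum. The next were second-series genes, IGDB24659 with 34 elements, IGDB25871 with 30, IGDB23938 with 28, and IGDB13565 and IGDB16662 with 26 each. At IGDB23938 the promoter held 2 elements of similar score, 115 at the TSS and 118 at 0.434 kb downstream. A high number of elements in the window thus did not go with a promoter element in every THAP gene.

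**Figure D4:**
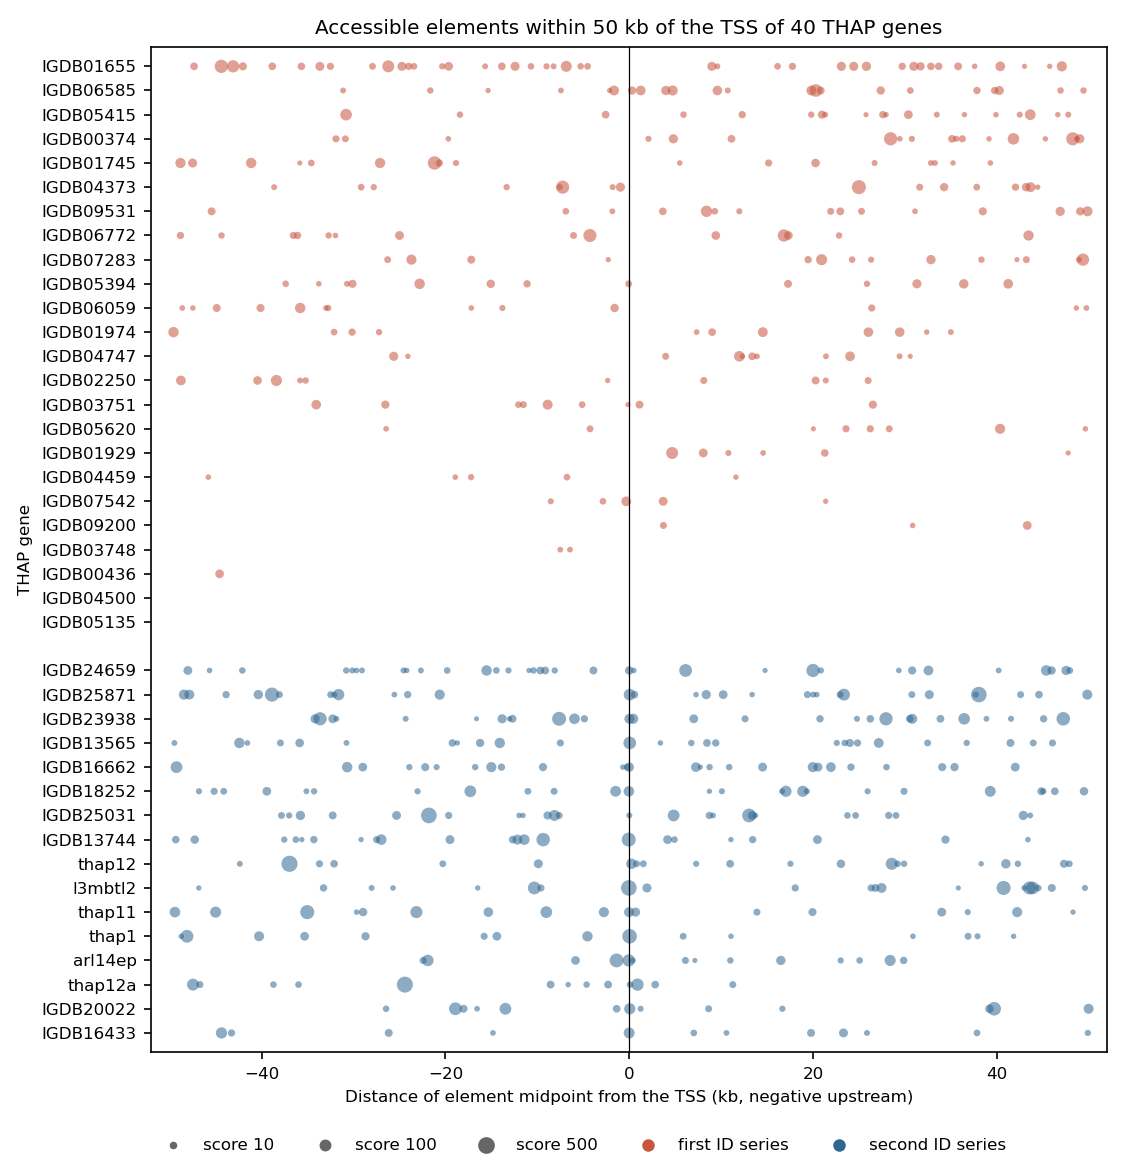
Each row is a THAP gene and each point an element, placed by the distance of its midpoint from the TSS (horizontal axis, kb, negative upstream), with larger points for higher scores. Rows are grouped by ID series and ordered by the number of elements. Points line up at the TSS in the 16 second-series genes, and at 5 of the 24 first-series genes.

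The difference in number was spread over the whole window in the first series. At 0 to 1 kb from the TSS, first-series THAP genes had 0.104 elements per gene and kb, against 0.568 in first-series other TF genes. Among the latter, zf-C2H2 genes had 0.444. Second-series THAP genes had 0.781 there, against 0.831 in second-series other TF genes. At 25 to 50 kb the density was 0.123 in first-series THAP genes, against 0.229 in other TF genes of that series, among them 0.176 in zf-C2H2 genes. First-series THAP genes showed no rise in density towards the TSS, whereas the other groups did.

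In the second series the densities were closer, apart from the region beside the promoter. At 1 to 5 kb second-series THAP genes had 0.133 elements per gene and kb, against 0.281 in second-series other TF genes. The value of THAP genes rests on 17 elements at 16 genes. At 5 to 10 kb THAP genes had 0.231, against 0.271 in other TF genes, and at 25 to 50 kb they had 0.200, against 0.245. Second-series zf-C2H2 genes were closer to THAP genes, with 0.208 at 1 to 5 kb, 0.220 at 5 to 10 kb and 0.209 at 25 to 50 kb. Upstream elements made up 45.6% of the 616 in THAP windows (281 upstream and 335 downstream), against 48.3% in the windows of other TF genes.

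**Figure D5:**
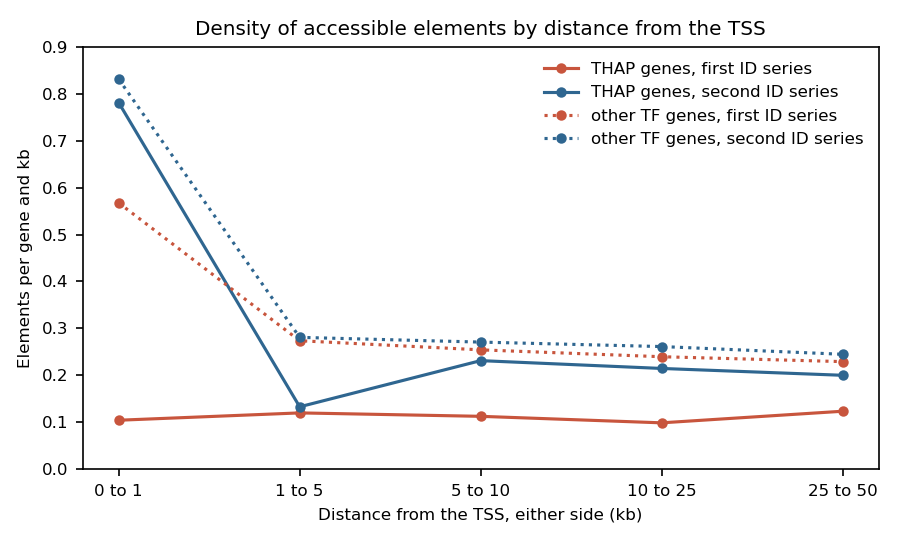
The density of elements (vertical axis, elements per gene and kb) is drawn by distance from the TSS on either side (horizontal axis, kb) for THAP genes and other TF genes of each ID series. First-series THAP genes stay between 0.0986 and 0.123 in all 5 distance classes, while the other lines are highest within 1 kb of the TSS.

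THAP genes were short, and many had no element within the gene body. The median length was 4251.5 bp (3577 bp in the first series and 5421.5 bp in the second), against 7914.5 bp for other TF genes. Homeobox genes were about as short, with a median of 4439 bp. No element had its midpoint within the gene body at 20 of 40 THAP genes (50%), against 193 other TF genes (12.9%). The share was 11.5% in Homeobox genes and 17.4% in zf-C2H2 genes. In the first series the gene body held no element at 17 of 24 THAP genes (70.8%), against 20% of other TF genes, among them 28.9% of zf-C2H2 genes. In the second series it was so at 3 of 16 THAP genes (18.8%), against 9.44% of other TF genes. Per kb of gene body, there were 0.162 elements in THAP genes, against 0.290 in other TF genes, among them 0.203 in zf-C2H2 genes. The difference was thus also present per length, and was smaller against zf-C2H2 genes.

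The density of protein-coding genes around the TSS differed between THAP genes and varied with their promoter elements. The number of protein-coding RefSeq genes within 50 kb of the TSS had a median of 5 for THAP genes and 5 for other TF genes. Within the THAP family the median was 4 in the first series and 8 in the second, while it was 5 in both series of other TF genes. The count includes the member's own RefSeq gene where that is protein-coding. This was so at 17 of 24 first-series and 15 of 16 second-series THAP genes. With at most 3 such genes, 1 of 10 THAP genes had a promoter element (10%), against 88.1% of other TF genes. With 4 to 6 the share was 53.3% of 15 THAP genes, against 85.3% of other TF genes, and with 7 or more it was 80.0% of 15 THAP genes, against 89.6% of other TF genes. The median number of elements in these classes was 9.5, 13 and 22 for THAP genes, against 27, 25 and 26 for other TF genes. These classes were chosen after the values had been seen, and in THAP genes they were not independent of the ID series.

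Over both series together, the strongest element of the window lay at gene ends about as often at THAP genes as at other TF genes. It lay within 1 kb of an end of a RefSeq gene at 25 of 40 THAP genes (62.5%), against 958 other TF genes (64.2%). The series differed in opposite directions. In the first series the share was 45.8% of THAP genes, against 60.3% of other TF genes. In the second series it was 87.5% of THAP genes, against 66.2% of other TF genes. The gene at that end was another than the matched one at 20 THAP genes (50%), against 674 other TF genes (45.2%). By series this was 41.7% against 49.6% in the first and 62.5% against 43.0% in the second. Another protein-coding gene ended or started within 1 kb of the TSS at 6 of 40 THAP genes (15.0%), against 165 other TF genes (11.1%). The shares were 8.33% against 10.1% in the first series and 25% against 11.5% in the second. Of the 6 THAP genes, 4 had a promoter element, all in the second series. These elements cannot be assigned to 1 gene from the list alone.

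The elements in THAP windows had a median score close to that of all elements on chromosomes. Together the windows held 606 different elements with a median score of 30.4 (upper quartile 75.2). Over the 144280 elements on chromosomes the median was 31.1 (upper quartile 67.6). In first-series windows the median was 28.6 (upper quartile 69.3), and in second-series windows it was 32.1 (upper quartile 86.9). Elements of a single peak made up 28.1%, against 27.6% on chromosomes, and those merged from at least 9 peaks made up 20.1%, against 12.4%. Elements merged from at least 9 peaks made up 24.3% in second-series windows and 15.3% in first-series windows of THAP genes. These values are not given here for windows of other TF genes, so none is read as particular to THAP windows.

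THAP genes lay on 17 of the 24 chromosomes, with 5 on chromosome 13 and 4 each on chromosomes 3 and 17. A single pair lay within 100 kb. The TSSs of IGDB21254 (arl14ep) and IGDB07283 on chromosome 3 were 49.3 kb apart and shared 10 elements, and the strongest element of the IGDB07283 window was the promoter element of arl14ep. The next closest, IGDB03748 and IGDB03751 on chromosome 17, were 103 kb apart and shared none.

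Genes of partners of THAP proteins, known from human and mouse, were also looked up. Of the 5 listed genes 4 were found in RefSeq, and the elements within 1 kb of either gene end were taken since the table used gives no strand. All 4 had such an element, as had 82.5% of the 22058 protein-coding RefSeq genes. At hcfc1, the co-regulator bound by THAP11, there were 3 elements, the strongest with a score of 74.8. At znf143, a zinc finger factor that reads the same promoter element as THAP11, there was 1, with a score of 353 and 10 merged peaks. At ogt, which adds O-linked N-acetylglucosamine to proteins and binds HCFC1, there were 3, the strongest with a score of 336. At pawr, a proapoptotic protein that binds THAP1 in human, there were 4, the strongest with a score of 121.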

How the data were processed

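ATAC-seq was done on 18 libraries (9 stages with 2 replicates). Per the labels and the study's methods, the authors used Trimmomatic 0.36, Bowtie2 2.3.4.1 and MACS2 2.1.2, with Picard, bedtools and deepTools, called peaks on merged replicates per stage and merged these into 1 list. The deposited score of each element was read as a −log10 q value and the deposited last column as the number of merged peaks, both from the values. How a merged element got its score is not given in the sources used here. TSSs were the gene starts (forward strand) or ends (reverse strand) of the study's TF table. RefSeq genes were those of ASM223467v1. Elements were placed by midpoint in Python 3.11.15 (NumPy 2.4.6, pandas 2.3.3, Matplotlib 3.10.9). Shares have 95% Wilson intervals (SciPy 1.17.1), which cover counting error only. The pooled list gives no depth per library. The procedure was tested on simulated data. Genes are named if they have a symbol, are among the 5 with the most or fewest elements or the 5 strongest promoter elements, have no promoter element, or lie within 100 kb of another THAP gene. Other genes were named after their values were seen. Members, lists and alternatives were chosen with earlier results of these data known. Promoter and protein sequences were not used here. Windows of 25 and 100 kb, promoter limits of 500 bp and 2 kb, element filters, merging and RefSeq TSSs were alternatives.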

Additional observations from a re-analysis of the deposited data

How the results depend on the processing

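Of the 40 alternative values computed, 36 stayed within 1.5-fold of the reported value and 4 moved further. Only the 8 differences of medians had a direction that could change, and none of these was reversed. The difference was -8, against -12 as reported, with a window of 25 kb. It was also -8 with elements merged from at least 2 peaks and with elements scoring at least 20. These values lay on the limit and were counted as within it. The median number of elements at THAP genes was 28.5 with a window of 100 kb and 6 with one of 25 kb, by the size of the window itself. The difference of medians, THAP genes minus other TF genes, was -21.5 with a window of 100 kb and -7.5 with elements closer than 500 bp merged, and lay between -13.5 and -8 under the other alternatives. The number of THAP genes with a promoter element ranged between 18 and 23, its median score between 118 and 138, and the median number of merged peaks was 9 throughout. No paired analysis was possible because the list used pools all libraries, and for the same reason no replicate was left out. Read coverage per library was not analysed here. Depth per library, mapping of reads at similar gene copies, and differences between stages were not analysed here. What the ID series stand for is not known, so a difference between them cannot be told apart from one between ways of making gene models.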

Other observations

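Of the 40 THAP genes, 32 overlapped a protein-coding RefSeq gene best, 4 a lncRNA gene, 1 a pseudogene and 3 no RefSeq gene. In this order, the counts were 17, 3, 1 and 3 of 24 genes in the first series. In the second series they were 15, 1, 0 and 0 of 16 genes. The same counts over other TF genes are not given here, so these are not read as particular to THAP genes. In the first series, 10 genes overlapped protein-coding RefSeq genes of very similar length, between 1942 and 2298 bp: IGDB01745, IGDB01974, IGDB04373, IGDB05394, IGDB05620, IGDB06772, IGDB07283, IGDB07542, IGDB09200 and IGDB09531. Of all 22058 protein-coding RefSeq genes on chromosomes, 2.80% had a length between 1900 and 2300 bp. Of the 10 genes, 3 had a promoter element. This length range was chosen after the values had been seen, and whether these genes are similar in sequence was not tested. The RefSeq gene thap4 on chromosome 17 (24771993 to 24777196) overlapped no gene of the study's TF list and was not counted.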
